A study of Mus musculus with 11 samples.

Results

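The 10 genes described here encode growth factors of the vascular endothelial growth factor (VEGF) and angiopoietin families (*Vegfa*, *Vegfc*, *Pgf*, *Angpt1* and *Angpt2*) and their receptors (*Kdr*, *Flt1*, *Flt4*, *Nrp1* and *Tek*). They were taken by gene symbol from the 28692 genes counted in mouse kidney cells, with earlier results of these data known. Each was read in podocytes, tubular segments, endothelium and stroma of control and fibrotic kidneys.

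VEGF-A and placental growth factor (*Pgf*) bind *Flt1* (VEGF receptor 1), and VEGF-A acts on endothelium mainly through *Kdr* (VEGF receptor 2), with *Nrp1* (neuropilin 1) as a co-receptor. VEGF-C binds *Flt4* (VEGF receptor 3) and also *Kdr*. Angiopoietin 1 activates the receptor *Tek* (Tie2) and stabilizes vessels, whereas angiopoietin 2 is made by activated endothelium and pericytes and often opposes it. In the kidney, podocytes and tubular cells are the known sources of VEGF-A, which maintains the fenestrated glomerular and peritubular capillaries.

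Kidneys of male C57Bl/6 mice, 10 weeks old at surgery, were compared 28 days after unilateral ischemia-reperfusion (UIR), a 30 min clamp of the left renal pedicle, or after unilateral ureteral obstruction (UUO), an irreversible ligation of the left ureter. Naive mice of that strain, sex and age served as controls. The data hold 5 control libraries (Ctrl, N1, N2, AN1 and AN2), 3 UIR libraries (UIR, UIR1 and UIR2) and 3 UUO libraries (UUO, UUO1 and UUO2), each from 1 mouse, and values are given below in that order. Droplet-based single-cell RNA sequencing counted captured transcripts by unique molecular identifiers (UMIs).

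The libraries held 49503312 to 117043590 UMIs, and 10275 control, 16938 UIR and 13368 UUO cells were kept, with medians of 3022 to 5183 UMIs per cell. The limit of 30% mitochondrial UMIs left out 57.0% to 78.8% of called control cells, 23.8% to 37.2% of UIR and 3.15% to 7.99% of UUO cells, so that cell loss and group cannot be told apart. The labels name no batch for any library, so that no term for a labelled batch could be fitted. A block for the number in the library title was fitted as an alternative, and it changed some calls (below). Library pairs shared 0 to 15 cell barcodes (median 4 over 55 pairs). Podocytes held their markers at 17617 to 23946 CPM (UMIs of a gene scaled to 1000000 UMIs of the pool) in sum, endothelium at 7511 to 9177 CPM and PT (proximal tubule) at 10704 to 16456 CPM. Loop of Henle cells held theirs at 17739 to 22368 CPM in controls, 12470 to 13100 CPM in UIR and 7475 to 8396 CPM in UUO. A level below is the CPM of the UMIs summed over all cells of 1 class in 1 library. Differences are log2 fold changes with a standard error (SE) from edgeR's quasi-likelihood test on these sums, with p adjusted over all genes of the class (Benjamini-Hochberg) and a threshold of 0.05.

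Among 8 members with an entry in RefSeq's table of promoters (build GRCm38.p6), the 250 bases before the start are shown for the VEGF-A gene and its 2 signalling receptors. Capitals mark ACGTG or GCGTG on either strand, the core that hypoxia-inducible factors (HIF) recognize. All 4 lie on the minus strand and are printed 5′ to 3′ along the gene, with *Vegfa* given at both of its listed starts, just upstream of the annotated gene (chr17:46032378-46032627) and within it (chr17:46025164-46025413), *Kdr* at chr5:75978456-75978705 and *Flt1* at chr5:147726012-147726261.
Vegfa, upstream start: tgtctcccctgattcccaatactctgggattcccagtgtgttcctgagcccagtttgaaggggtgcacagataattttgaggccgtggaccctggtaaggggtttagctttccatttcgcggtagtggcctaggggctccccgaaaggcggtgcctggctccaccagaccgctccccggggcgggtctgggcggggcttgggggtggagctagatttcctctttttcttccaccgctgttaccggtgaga
Vegfa, downstream start: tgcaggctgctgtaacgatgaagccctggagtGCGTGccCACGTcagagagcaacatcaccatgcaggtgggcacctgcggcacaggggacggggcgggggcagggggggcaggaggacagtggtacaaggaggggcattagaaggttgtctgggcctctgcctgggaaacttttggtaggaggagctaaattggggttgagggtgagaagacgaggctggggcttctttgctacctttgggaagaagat
Kdr: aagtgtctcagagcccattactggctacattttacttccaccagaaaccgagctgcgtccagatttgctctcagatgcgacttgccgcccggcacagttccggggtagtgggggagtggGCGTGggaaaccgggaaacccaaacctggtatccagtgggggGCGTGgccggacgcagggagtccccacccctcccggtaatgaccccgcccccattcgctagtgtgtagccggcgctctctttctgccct
Flt1: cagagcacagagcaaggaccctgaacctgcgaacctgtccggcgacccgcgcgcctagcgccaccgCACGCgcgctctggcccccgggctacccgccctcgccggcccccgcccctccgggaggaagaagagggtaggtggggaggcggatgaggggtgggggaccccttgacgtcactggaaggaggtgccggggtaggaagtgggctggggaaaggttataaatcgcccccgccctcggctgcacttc

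*Kdr* held 2 such cores, at bases -131 and -89 from the start, and *Flt1* held 1, at base -184. *Vegfa* held none in the window of the upstream start and 2 in that of the downstream start, at bases -218 and -211. *Nrp1* held 1 and *Pgf* held 1 in 1 of its 2 entries, and *Tek*, *Vegfc* and *Flt4* held none. The core is common, with at least 1 match in 43.8% of all 32851 promoters of 300 bases, and a match is no evidence of binding. *Angpt1* and *Angpt2* are the other members.

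In control kidneys, each member had its own place along the nephron and its vessels. *Vegfa* was led by podocytes, with a mean of 1636 ± 223 CPM (SD, n = 5), and the next class was the loop of Henle at 126 ± 18.5 CPM. PT, distal tubule, principal cells and intercalated cells followed between 89.4 and 121 CPM, and each of these overlapped its neighbor in the order. The podocyte range lay apart from that of every other class.

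The receptors *Kdr*, *Flt1* and *Flt4* were endothelial, and the capillary beds differed in level. *Kdr* had a mean of 3038 ± 413 CPM in glomerular endothelium (GEC), 1666 ± 395 CPM in peritubular capillary endothelium (PTC) and 119 ± 37.2 CPM in arterial endothelium (n = 5 each), and these ranges did not overlap. *Flt1* ran in another order, with 2306 ± 462 CPM in PTC, 1360 ± 190 CPM in GEC and 847 ± 126 CPM in arterial endothelium. *Flt4* followed the order of *Flt1*, at 121 ± 17.9, 73.2 ± 10.9 and 40.5 ± 8.45 CPM. The control PTC level of *Flt4* was highest in library AN1.

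*Nrp1* was not restricted to vessels. It had a mean of 4983 ± 514 CPM in GEC, 2113 ± 189 CPM in PTC, 2566 ± 783 CPM in stroma, 252 ± 47.2 CPM in podocytes and 108 ± 30.1 CPM in the loop of Henle. *Tek* had 595 ± 110 CPM in PTC and 514 ± 86.9 CPM in GEC, which overlapped, 303 ± 47.8 CPM in arterial endothelium and 52.6 ± 18.6 CPM in stroma.

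The angiopoietins and the minor VEGFs had other sources. *Angpt2* was highest in the class named from markers of failed repair tubular epithelial cells (frTEC), at 522 ± 27.0 CPM (n = 3). Of the 101 control cells of this class, 60 lay in a cluster led by *Fst* and *Bst1*, with the water channel *Aqp1* among its leading genes, and 21 in a cluster led by *Uncx* and the urea transporter *Slc14a2*. These clusters held the *Angpt2*, at 516 and 766 CPM in control. Of the 2 clusters with the injury marker *Havcr1* among their leading genes, 1 had 8 control cells and the other 0, and over all groups they held *Angpt2* at 0 and 1.10 CPM. *Angpt2* followed in stroma at 157 ± 44.6 CPM and whole endothelium at 9.23 ± 2.79 CPM (n = 5 each). *Angpt1* was highest in the distal tubule, at 33.9 ± 7.42 CPM, and in principal cells, at 31.4 ± 5.27 CPM, which overlapped. *Vegfc* had its highest level in arterial endothelium, at 176 ± 71.8 CPM, and *Pgf* in stroma, at 50.1 ± 28.3 CPM, each apart from the next class.

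**Figure D1:**
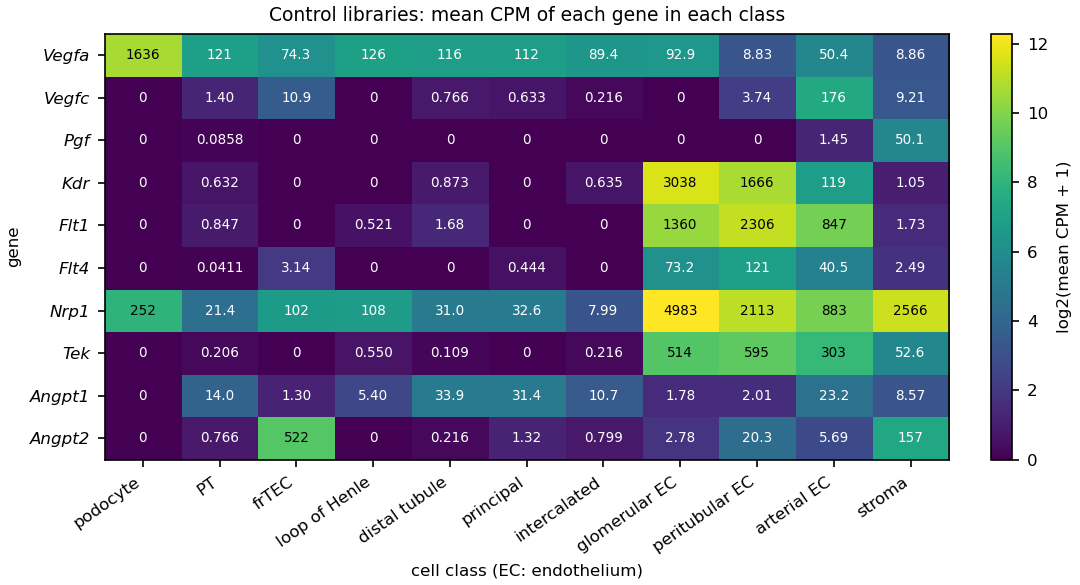
Mean level of the 10 members in 11 cell classes of control kidneys. Rows are genes, columns are classes, and color gives the mean CPM over 5 control libraries (3 for frTEC) on a log scale. *Vegfa* stands out in podocytes (1636 CPM) and *Angpt2* in the class named frTEC (522 CPM). Most control cells of that class lay in the clusters led by *Fst* and *Uncx*, not in those with *Havcr1* among their leading genes.

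The levels of these genes differed between fibrotic and control kidneys in most classes. Against control, 29 of 66 pairs of a member and a class were called in UIR (13 higher, 16 lower; 43.9%, where 14.1% of all tested pairs of a gene and a class were called). In UUO, 35 of 63 pairs were called (16 higher, 19 lower; 55.6%, against a background of 19.4%). Both comparisons share the control libraries, and whole endothelium and stroma are counted beside their sub-classes. The members were chosen with earlier results of these data known, so that these shares are no test of the set. Between UUO and UIR, 11 of 79 pairs were called (13.9%, against a background of 1.98%), and 7 without library UIR. The share of all genes called differed by class. In UIR it was 1.15% in podocytes, 12.1% in PT, 12.9% in frTEC, 32.4% in the loop of Henle, 37.4% in the distal tubule, 7.95% in principal cells, 22.2% in intercalated cells, 2.41% in endothelium and 13.8% in stroma. In UUO it was 2.97% in podocytes, 8.81% in PT, 14.1% in frTEC, 37.2% in the loop of Henle, 48.7% in the distal tubule, 28.7% in intercalated cells, 12.5% in endothelium and 18.1% in stroma. In arterial endothelium it was 1.74% in UIR and 5.16% in UUO. *Vegfa* was lower in 8 of 11 classes in UIR and in 7 of 10 in UUO, and *Nrp1* was higher in 5 and lower in 3 classes in each model (of 12 and 11).

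**Figure D2:**
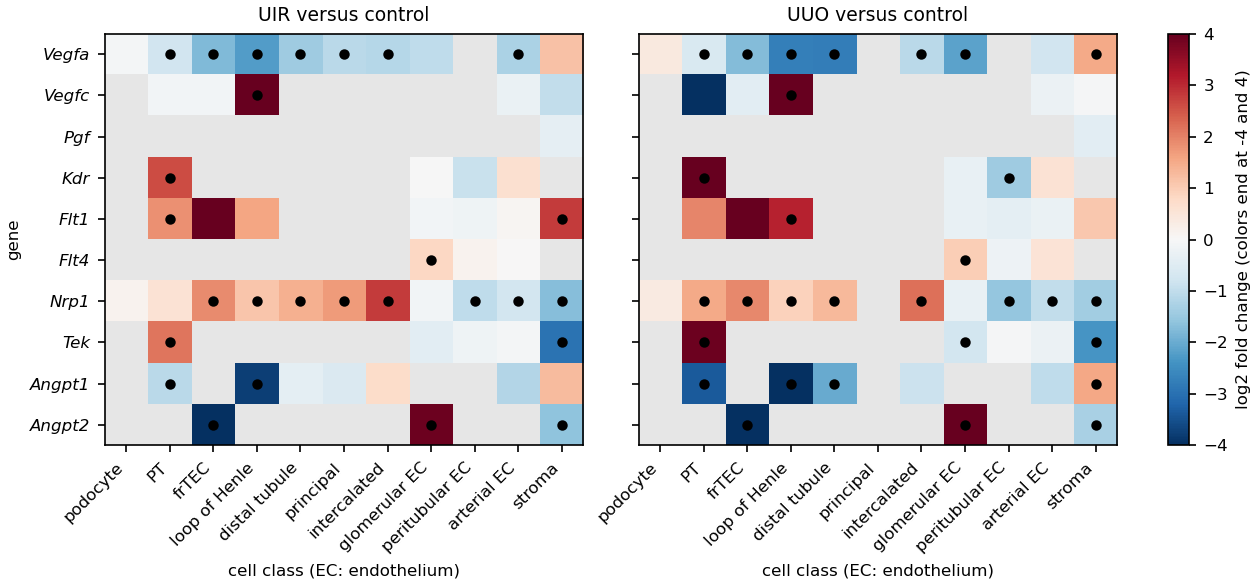
Log2 fold change of each member against control in UIR and UUO, by cell class. Colors run from -4 to 4, grey marks pairs that were not tested, and a black dot marks an adjusted p under 0.05. *Vegfa* is lower in each of the 5 tubular classes tested in both models, where *Nrp1* is higher (in PT the *Nrp1* dot is in UUO alone).

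In podocytes, where *Vegfa* was highest, neither model passed the test. The level was 1908, 1360, 1463, 1764 and 1684 CPM in control, 1584, 1415 and 1635 CPM in UIR and 2100, 2193 and 2288 CPM in UUO libraries. The UIR values fell within the control range and all 3 UUO values lay above it. The UIR difference was -0.09 (SE 0.12, adjusted p = 0.929, 95% interval -0.31 to 0.14). The UUO difference was 0.39 (SE 0.11, adjusted p = 0.050, interval 0.17 to 0.62), which is above the threshold before rounding. It passed in 7 of 25 other settings (0.38 to 0.44, adjusted p = 0.00793 to 0.0494), which were DESeq2's test, its size factors, the finer clustering, cells of at least 1000 UMIs, the number in the title as a block and leaving out library Ctrl or library UIR, and over all 25 the adjusted p ran from 0.00793 to 0.345. The UUO values also lay above all UIR values (0.48, SE 0.13, adjusted p = 0.206, and 0.0288 with the block).

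In the loop of Henle, *Vegfa* fell by the largest factor of the shared tubular classes in UIR, and by nearly the largest in UUO. Control libraries had 144, 121, 138, 96.5 and 129 CPM, UIR libraries 30.8, 31.9 and 31.2 CPM and UUO libraries 21.5, 21.8 and 24.0 CPM. No injured library reached the control range, and the differences were -2.25 (SE 0.15, adjusted p = 4.10e-13) and -2.75 (SE 0.16, adjusted p = 1.5e-14). The injured levels lay near that of *Vegfa* in empty droplets, which had medians of 24.7 CPM in control, 28 CPM in UIR and 33.9 CPM in UUO. Different cell clusters made up this class in each group: 1 cluster held 259 of 262 control cells, but 75 of 1446 UIR and 8 of 939 UUO cells. Within it, *Vegfa* was 130 CPM in control and 99.7 CPM in UIR, and the difference was -0.21 (adjusted p = 0.867, a fit added after seeing the data). The largest injured clusters were 1 led by *Slc12a1* and *Umod* (2 control, 829 UIR and 277 UUO cells), with *Vegfa* at 33.3 CPM in UIR and 31.0 CPM in UUO, and 1 led by *Psca* and *Slurp1* (0, 295 and 393 cells), with 19.2 and 14.6 CPM. The latter had 4 of 5 loop of Henle markers detected but 0 of them among its 10 leading genes, which include *Mmp7* and the chemokine *Cxcl5*.

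The distal tubule, where the segments of thiazide-sensitive salt transport and calcium reabsorption were read together, ended lower in UUO than in UIR. *Vegfa* was 141, 74.8, 113, 139 and 114 CPM in control, 59.1, 66.2 and 42.3 CPM in UIR and 19.4, 22.7 and 28 CPM in UUO. The 3 groups did not overlap. The differences from control were -1.43 (SE 0.18, adjusted p = 1.80e-06) in UIR and -2.77 (SE 0.20, adjusted p = 2.60e-10) in UUO, and UUO was lower than UIR by -1.34 (SE 0.21, adjusted p = 0.000359). The clusters of this class, too, differed in share between the groups, which bears on each value of the distal tubule. The largest one in control and UIR, led by *Calb1*, was present in every group (233 cells in control, 644 in UIR, 106 in UUO). A cluster led by *Spink12* and *Sprr2f* held 0 of the 691 cells in control, 202 of 1231 in UIR and 343 of 544 in UUO, and another led by *Slc12a3* held 1, 289 and 81. The former had 4 of 8 markers of the merged class detected and 0 among its 10 leading genes, which include the chemokines *Ccl20* and *Cxcl5*. *Vegfa* was 24.0 CPM in UIR and 16.4 CPM in UUO there, and 76.2 and 47.9 CPM in the *Slc12a3* cluster. In the cluster led by *S100g* and *Calb1* with 153 control and 55 UIR cells, *Vegfa* was 123 CPM in control and 85.9 CPM in UIR, and in that led by *Pvalb* with 167 and 27 cells it was 146 and 117 CPM. These pooled values had no test. Levels of the members in the large *Calb1* cluster, and in a further cluster led by *Calb1* (137 control, 14 UIR and 2 UUO cells), are not given here.

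PT, the largest control class with 6996 cells, held *Vegfa* at 111, 116, 124, 118 and 137 CPM in control, 75.1, 55.9 and 82.7 CPM in UIR and 63.4, 102 and 83.9 CPM in UUO. Every injured library lay below every control. The differences were -0.77 (SE 0.12, adjusted p = 9.20e-05) and -0.62 (SE 0.16, adjusted p = 0.0176). The UUO call rests on 212 cells and was lost without library UUO (-0.51, adjusted p = 0.0943), UUO2 (-0.62, adjusted p = 0.0623) or the AN libraries (-0.52, adjusted p = 0.0904) and at mitochondrial limits of 15% (-0.81, adjusted p = 0.167) and 50% (-0.34, adjusted p = 0.0889). Summed podocyte markers in the PT pools were 4.71 to 12.7 CPM in control, 18.7 to 80.4 CPM in UIR and 9.06 to 440 CPM in UUO, and their part in the PT values was not tested. PT, too, drew on its clusters unevenly, which bears on the PT values of every member. In control, 1529 of 6996 PT cells lay in a cluster led by *Acy3* (median 854 UMIs). UIR had 1280 of its 2703 PT cells there, and UUO 90 of its 212. Another, led by *Snhg11* and *Slc5a12*, had 661 cells from control, 87 from UIR and 1 from UUO. Member levels within the PT clusters are not given here.

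*Vegfa* was also lower in intercalated cells, principal cells and frTEC as classes, each of which drew on its clusters in different shares in control and injured kidneys. In intercalated cells, which secrete acid or base, it was 96.0, 76.4, 83.8, 104 and 86.8 CPM in control, 57.0, 52.0 and 44.6 CPM in UIR and 62.9, 47.2 and 57.8 CPM in UUO. The groups did not overlap with control, and the differences were -1.13 (SE 0.16, adjusted p = 2.40e-06) and -1.07 (SE 0.17, adjusted p = 8.60e-06). Principal cells, which reabsorb water, had 155, 95.5, 97.9, 91.5 and 118 CPM in control and 58.5, 49.3 and 60.9 CPM in UIR (-1.08, SE 0.20, adjusted p = 0.000190), and the only UUO library with enough of these cells had 38.6 CPM. In frTEC, the 3 control libraries with enough cells had 89.7, 49.7 and 83.6 CPM, the UIR libraries 19.5, 21.0 and 24.4 CPM and the UUO libraries 23.5, 25.5 and 19.5 CPM, which gave -1.76 (SE 0.26) and -1.73 (SE 0.27) with adjusted p of 0.000144 and 0.000191. These injured frTEC levels, too, lay near those of empty droplets, and both calls also passed after subtraction of free RNA.

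Within those clusters for which control and injured values are given here, which were not tested one by one, *Vegfa* was lower in injured cells as well. The *Atp6v1g3* cluster of intercalated cells, with 152 of the 249 control cells, has no *Vegfa* value here. In intercalated cells the *Slc26a4* cluster had 101 CPM in control and 64.7 CPM in UIR and the cluster led by *Slc4a1* and *Aqp6* 82.7 and 67.6 CPM, while the 2 clusters with 0 control cells had 58.6 and 41.0 CPM in UIR and 72.7 and 37.8 CPM in UUO. In principal cells the cluster led by *Aqp2* and *Aqp3* (118 control, 132 UIR and 13 UUO cells) had 126 CPM in control and 72.5 CPM in UIR. A cluster led by *Aqp2* and *Aqp4*, with 100 control and 12 UIR cells, had 106 CPM in control, and 1 led by *Aldh1a3*, with 4 control, 32 UIR and 57 UUO cells, had 21.6 CPM in UIR and 28.3 CPM in UUO. In frTEC, the clusters led by *Fst* and by *Uncx* held 60 and 21 of the 101 cells in control, 111 and 143 of 842 in UIR and 47 and 61 of 353 in UUO. *Vegfa* was 82.2 CPM in control, 19.6 CPM in UIR and 11.5 CPM in UUO in the former and 41.0, 8.52 and 6.87 CPM in the latter, where the values rest on 9, 15 and 5 UMIs.

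**Figure D3:**
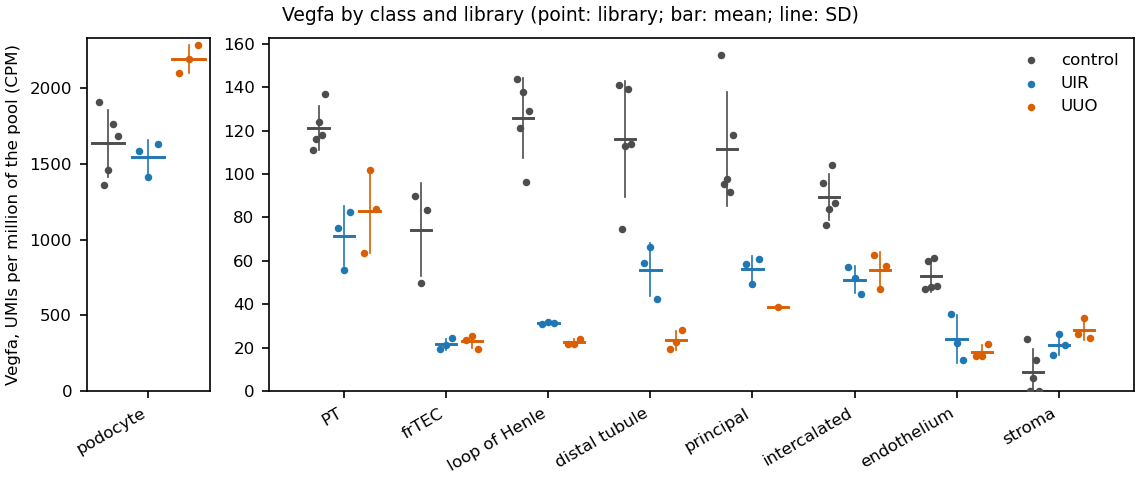
*Vegfa* level per library in podocytes and 8 other classes. The y axes give CPM, points are libraries, bars are means and lines are SD; podocytes lie at 1360 CPM or more in every library, whereas each UIR and UUO point of the loop of Henle lies at 31.9 CPM or less.

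The injury effect on *Vegfa* differed between podocytes and the loop of Henle. With the library as a block, the podocyte change exceeded that of the loop of Henle by 2.20 (SE 0.15, adjusted p = 3.30e-21) in UIR and by 3.12 (SE 0.16, adjusted p = 1.70e-28) in UUO, where 16.6% and 17.8% of all genes were called in this test. The clusters that make up the loop of Henle class in each group (above) enter this difference.

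Endothelium and stroma carried less *Vegfa*. GEC had 115, 64.4, 45.6, 148 and 91.4 CPM in control, 54.0, 51.5 and 26.0 CPM in UIR and 19.6, 17.4 and 28.1 CPM in UUO, with differences of -1.01 (adjusted p = 0.0652) and -2.13 (SE 0.30, adjusted p = 9.90e-06). The UIR difference passed in 5 of 26 alternatives (-1.43 to -0.96, adjusted p = 0.00388 to 0.0491), among them without N2 (-1.22, adjusted p = 0.0104) or, in the fit, UUO2 (-1.01, adjusted p = 0.0491). UUO against UIR did not pass in the main fit, but did in 10 of 25 alternatives (-1.40 to -1.10, adjusted p = 0.00108 to 0.0442). In the GEC cluster led by *Ehd3*, which held 218 of 234 control cells but 25 of 721 UUO cells, *Vegfa* was 78.0 CPM in control, 56.0 CPM in UIR and 54.2 CPM in UUO, and the UIR difference there was -0.53 (adjusted p = 0.816). Summed podocyte markers in the same GEC pools were 1107 to 1315 CPM in control, 689 to 871 CPM in UIR and 618 to 762 CPM in UUO, and their part in this result was not tested. In control the same markers summed to 1258 to 1576 CPM in arterial endothelium and 811 to 1212 CPM in PTC. The sum is therefore not particular to GEC and does not measure podocyte RNA alone. In arterial endothelium, *Vegfa* was lower in UIR (-1.28, adjusted p = 0.0274), a call lost without N1 (-1.01, adjusted p = 0.188), N2 (-1.18, adjusted p = 0.0684), UIR1 (-1.24, adjusted p = 0.119) or UIR2 (-1.19, adjusted p = 0.135). Stroma ran the other way, with 24.0, 0, 5.81, 14.5 and 0 CPM in control and 26.2, 33.6 and 24.6 CPM in UUO (1.5, adjusted p = 0.0378). This call was lost without any 1 of N1, N2, AN1, AN2 and the 3 UUO libraries, where it ran from 1.20 (without N1, adjusted p = 0.109) to 1.61 (without AN1, adjusted p = 0.0568), and with doublets kept (1.12, adjusted p = 0.10). Within stroma, *Vegfa* was 28.2 to 34.3 CPM in UIR and 29.3 to 41.7 CPM in UUO in Fibro 1, the cluster rich in collagen genes, which held 3 of 165 control, 276 UIR and 346 UUO cells. It was 5.84, 4.28 and 0 to 4.72 CPM in the control, UIR and UUO pools of the pericyte-like Fibro 3.

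Over all kept cells, *Vegfa* had a mean of 159 ± 22.7 CPM in control (n = 5), 54.4 ± 4.14 CPM in UIR and 39.7 ± 6.63 CPM in UUO (n = 3 each). At this level, fewer cells of a type and less RNA per cell cannot be told apart. PT gave 52.5% and podocytes 32.9% of control *Vegfa* UMIs. In UIR, podocytes gave 40%, PT 14.0%, the loop of Henle 11.9% and intercalated cells 10.4%, and in UUO podocytes gave 51.6%.

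*Vegfc*, the ligand of *Flt4*, appeared in the loop of Henle of injured kidneys. Control libraries held 0 of 1885874 UMIs, against 12.7, 11.5 and 14.3 CPM in UIR and 15.7, 11.4 and 12.7 CPM in UUO. Against a floor of 3 counts over the control group (1.59 CPM), *Vegfc* was at least 8.14-fold higher in UIR and at least 8.39-fold higher in UUO (fit adjusted p = 1.5e-05 and 1.10e-05). The injured cells lay in clusters that held few controls, at 11.7 CPM in UIR and 10.6 CPM in UUO in the *Slc12a1* cluster and 17.4 and 15.9 CPM in the *Psca* cluster. Both calls were lost at the 15% mitochondrial limit (adjusted p = 0.0923 and 0.0837), although the fitted differences, which depend on the prior count because control is at 0, were as large (8.99 and 8.98, against 8.66 and 8.71). In arterial endothelium it was 110, 235, 224, 85.7 and 224 CPM in control, 188, 139 and 112 CPM in UIR and 160, 139 and 142 CPM in UUO, and did not pass the test (-0.27, adjusted p = 0.859 and -0.25, adjusted p = 0.795).

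*Pgf*, a ligand of *Flt1*, was 34.3, 99.3, 40.7, 29.0 and 47.0 CPM in control stroma, 33.0, 32.4 and 45.6 CPM in UIR and 42.8, 30.5 and 36.9 CPM in UUO. These ranges overlapped (-0.36, adjusted p = 0.536 and -0.41, adjusted p = 0.414). In whole endothelium the 5 control libraries held 1 *Pgf* UMI, in N2, whereas UIR had 1.11, 1.70 and 4.57 CPM (18 UMIs) and UUO 5.98, 16.1 and 13 CPM (132 UMIs). The ratio to control was 44.9 in UUO (95% counting interval 7.92 to 1788, fit adjusted p = 0.000145) and 9.08 in UIR (1.43 to 378, adjusted p = 0.272). Summed stromal markers in these pools were 5.87 to 15.7 CPM in control, 28.1 to 83.1 CPM in UIR and 32.8 to 189 CPM in UUO. Empty droplets held *Pgf* at medians of 0.131, 0.703 and 2.33 CPM. The part of either in the endothelial values was not tested. UUO exceeded UIR by 2.20 (SE 0.46, adjusted p = 0.00736), a call lost without UIR1 (2.02, adjusted p = 0.0664) or UUO1 (1.89, adjusted p = 0.0815). Stroma gave 88.7% of all *Pgf* UMIs in control and 55.1% in UUO, where endothelium gave 33.1%.

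*Kdr*, the main signalling receptor of VEGF-A, was lower in PTC of obstructed kidneys. In PTC it was 2233, 1259, 1619, 1862 and 1357 CPM in control, 1026, 1062 and 767 CPM in UIR and 352, 591 and 1043 CPM in UUO. All 6 injured libraries lay below all controls, with differences of -0.89 (SE 0.28, adjusted p = 0.153) in UIR and -1.43 (SE 0.30, adjusted p = 0.0102) in UUO. The UUO call was lost with the number in the title as a block (-1.43, adjusted p = 0.0598). The UIR difference passed by DESeq2's test (-0.90, adjusted p = 0.0335), without the count filter (-0.82, adjusted p = 0.000229) and in the fit without library UUO (-0.89, adjusted p = 0.00271) or UUO2 (-0.90, adjusted p = 0.00118). PTC held 215 control, 247 UIR and 117 UUO cells. An unnamed cluster of low UMI counts, with *Fabp4*, *Plvap* and *Flt1* among its leading genes, held 38, 225 and 272. Those cells are outside every PTC and endothelial value, and their levels are not given here. GEC had 3716, 2810, 2754, 3148 and 2762 CPM in control, 3109, 3260 and 2825 CPM in UIR and 2583, 2466 and 2722 CPM in UUO. The UIR values lay within the control range and the UUO values just below it, and neither passed (-0.02, adjusted p = 0.986 and -0.31, adjusted p = 0.163), although DESeq2's test called the UUO difference (-0.32, adjusted p = 0.0297).

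Arterial *Kdr* was 122, 112, 72.4, 111 and 176 CPM in control, 194, 238 and 160 CPM in UIR and 172, 194 and 208 CPM in UUO, with differences of 0.63 (adjusted p = 0.0664) and 0.59 (adjusted p = 0.0551). Without AN2 both passed (0.82, adjusted p = 0.0115 and 0.78, adjusted p = 0.00870), as they did without UIR2 (0.77, adjusted p = 0.0418 and 0.58, adjusted p = 0.0487), and the UIR difference without library UUO (0.62, adjusted p = 0.0498). In PT, *Kdr* was called higher at low levels, with 0.390 to 1.34 CPM in control, 1.32 to 9.0 CPM in UIR and 2.09 to 28 CPM in UUO (2.61, adjusted p = 0.0357 and 4.20, adjusted p = 0.0266). Summed endothelial markers in the same PT pools were 11.2 to 13, 21.9 to 48.1 and 24.9 to 168 CPM, and the median *Kdr* level of empty droplets was 6.18, 9.97 and 46.7 CPM. Both calls were lost after subtraction of free RNA (3.56, adjusted p = 0.25 and 5.49, adjusted p = 0.168), with fitted differences no smaller, and with doublets kept (1.08, adjusted p = 0.352 and 2.53, adjusted p = 0.153). The part of the endothelial markers in the PT values was not tested. The UIR call was lost without Ctrl, N1, N2, AN2 or library UIR (1.35 without the last, adjusted p = 0.258) and with the number in the title as a block, and the UUO call without AN2, library UUO or UUO2 (2.69 without the last, adjusted p = 0.373).

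*Flt1*, the high-affinity VEGF-A receptor, did not pass the test in any of the 3 endothelial beds. In GEC it was 1619, 1133, 1226, 1448 and 1376 CPM in control, 1072, 1455 and 1370 CPM in UIR and 956, 1264 and 1260 CPM in UUO. In PTC it was 3050, 1861, 2130, 2420 and 2067 CPM in control, 1858, 2099 and 2515 CPM in UIR and 1370, 2257 and 2188 CPM in UUO. The groups overlapped in both beds, with differences of -0.10 (adjusted p = 0.886) and -0.31 (adjusted p = 0.201) in GEC and -0.18 (adjusted p = 0.781) and -0.38 (adjusted p = 0.175) in PTC. Arterial *Flt1* differed by 0.08 (adjusted p = 0.937) and -0.26 (adjusted p = 0.399). In Fibro 1 of the stroma *Flt1* was 20.2, 22.3 and 23.8 CPM in UIR and 3.22, 7.87 and 3.66 CPM in UUO (-2.21, SE 0.38, adjusted p = 0.00104). Summed endothelial markers in these pools moved with it, at 309 to 369 CPM in UIR and 123 to 230 CPM in UUO, and their part in the result was not tested. Fibro 1 held 3 control cells, so that no control value can be given.

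*Flt1* calls elsewhere rested on few UMIs. The loop of Henle had 1 UMI over the control libraries and 5.37, 5.23 and 5.99 CPM in UUO, a ratio of 10.3 (counting interval 1.79 to 411), and the fit lost this call with doublets kept (0.56, adjusted p = 0.656), without Ctrl (2.58, adjusted p = 0.0733) or without the AN libraries (2.43, adjusted p = 0.114). Endothelial markers in these pools were 0 to 9.68 CPM in control and 25.4 to 42.4 CPM in UUO. There UUO exceeded UIR by 1.5 (adjusted p = 0.0269), and not without UUO2 (1.46, adjusted p = 0.103). Stroma had 2 UMIs in control and 14.7, 15.7 and 11.9 CPM in UIR, a ratio of 6.97 (1.86 to 58.6, fit adjusted p = 0.0148), with the call lost with doublets kept (0.20, adjusted p = 0.922), after subtraction of free RNA (2.72, adjusted p = 0.0587), without UIR1 (2.67, adjusted p = 0.0587) or without the AN libraries (2.27, adjusted p = 0.101). Endothelial markers in the stromal pools were 72.1 to 163 CPM in control, 203 to 231 CPM in UIR and 117 to 187 CPM in UUO, and the part of these markers in the loop of Henle and stromal values was not tested. Stromal *Flt1* was lower in UUO than in UIR (-1.72, adjusted p = 0.0197), a call lost with doublets kept (-1.16, adjusted p = 0.566) and without library UIR (-1.70, adjusted p = 0.0535), UIR1 (-1.60, adjusted p = 0.148), library UUO (-1.4, adjusted p = 0.157) or UUO2 (-1.70, adjusted p = 0.111). In PT the UIR call of *Flt1* (1.84, adjusted p = 0.0183) was lost without library UIR (1.53, adjusted p = 0.121) or UIR1 (1.90, adjusted p = 0.0738) or without the N libraries (1.76, adjusted p = 0.0590), beside endothelial markers of 11.2 to 13 CPM in control and 21.9 to 48.1 CPM in UIR in these pools, whose part was not tested.

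*Flt4*, the VEGF-C receptor, rose in GEC, and did not pass in PTC. GEC had 76.9, 57.9, 82.7, 82.6 and 66.0 CPM in control, 106, 139 and 161 CPM in UIR and 118, 169 and 173 CPM in UUO, without overlap. The differences were 0.82 (SE 0.21, adjusted p = 0.0169) and 0.98 (SE 0.19, adjusted p = 0.000328). The UIR call was lost without N1 (0.73, adjusted p = 0.0802), UIR1 (0.79, adjusted p = 0.0599) or UIR2 (0.68, adjusted p = 0.147). In PTC, *Flt4* was 116, 109, 114, 153 and 114 CPM in control, 104, 182 and 117 CPM in UIR and 59.8, 131 and 135 CPM in UUO, and these overlapped (0.13, adjusted p = 0.932 and -0.19, adjusted p = 0.764). Whole endothelium rose by 0.77 in UUO (adjusted p = 0.000846). Its makeup differed between groups, which bears on each value of whole endothelium. Venous cells were 10 of 671 in control, 178 of 1199 in UIR and 281 of 1596 in UUO, and an unnamed cluster led by *Ccl21a* held 0, 3 and 73.

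GEC came from different clusters in each group, which bears on each GEC value. The cluster led by *Ehd3*, *Cyp26b1* and *Pi16* held 218 control, 146 UIR and 25 UUO cells. The cluster led by *Apln* and *Gpihbp1* held 2, 174 and 423 cells, and the cluster led by *Esm1* and *Plat* held 14, 97 and 273 cells. Within the first of these, *Flt4* was 72.4 CPM in control and 104 CPM in UIR, and the difference there was 0.54 (adjusted p = 0.507, fit added after seeing the data). *Kdr* in that cluster differed by 0.05 (adjusted p = 0.969), *Flt1* by -0.14 (adjusted p = 0.888) and *Nrp1* by -0.03 (adjusted p = 0.981).

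*Nrp1*, the co-receptor of VEGF-A and of class 3 semaphorins, rose along the tubule. In the loop of Henle it was 132, 116, 59.9, 132 and 99.1 CPM in control, 267, 268 and 282 CPM in UIR and 230, 217 and 281 CPM in UUO. The injured libraries all lay above the controls, and the differences were 1.10 (SE 0.17, adjusted p = 4.90e-06) and 0.92 (SE 0.17, adjusted p = 6.00e-05). In the injured clusters it was 275 CPM in UIR and 245 CPM in UUO (*Slc12a1*) and 286 and 234 CPM (*Psca*). In contrast to *Vegfa*, the UIR difference of *Nrp1* was also called in the cluster with most control cells (1.19, adjusted p = 0.00165).

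The distal tubule had 34.8, 32.8, 22.5, 32.7 and 32.4 CPM of *Nrp1* in control, 97.3, 122 and 107 CPM in UIR and 124, 92.1 and 99.4 CPM in UUO (1.43, SE 0.16, adjusted p = 1.30e-08 and 1.30, adjusted p = 4.60e-08). Of the distal clusters that held many controls, 2 are given, and the largest, led by *Calb1*, is not among them. The *S100g* cluster had *Nrp1* at 40.8 CPM in control and 58.8 CPM in UIR and the *Pvalb* cluster at 28.7 and 60.1 CPM. The *Spink12* cluster, with 0 control cells, had 117 CPM in UIR and 99.4 CPM in UUO and the *Slc12a3* cluster 115 and 138 CPM. Intercalated cells had 6.47, 6.03, 6.29, 13.3 and 7.89 CPM in control, 73.0, 68.0 and 65.6 CPM in UIR and 33.8, 53.2 and 47.1 CPM in UUO. They showed the largest *Nrp1* difference of any class, with 2.81 (SE 0.24, adjusted p = 8.00e-10) and 2.21 (SE 0.26, adjusted p = 1.30e-07). Their clusters, too, differed in share, since 2 clusters without a control cell held 128 and 140 of 664 UIR and 142 and 65 of 255 UUO cells. The former of these, led by *Dmrt2*, had *Nrp1* at 7.47 CPM in UIR and 6.82 CPM in UUO, and the latter, with *Stc1* among its leading genes, at 105 and 79.6 CPM. In the cluster led by *Slc26a4*, with 52 control and 133 UIR cells, it was 12.9 CPM in control and 50.3 CPM in UIR. The cluster led by *Atp6v1g3*, the largest of the class in control and UIR (152 control, 216 UIR and 38 UUO cells), has no *Nrp1* value here. In the whole class of intercalated cells, *Nrp1* was lower in UUO than in UIR (-0.61, SE 0.15, adjusted p = 0.0214), a call lost without library UIR (-0.54, adjusted p = 0.0810), UIR1 (-0.62, adjusted p = 0.111), library UUO (-0.51, adjusted p = 0.0656) or UUO2 (-0.62, adjusted p = 0.0960).

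Principal cells had 22.2, 46.7, 13.5, 20.7 and 59.9 CPM of *Nrp1* in control and 104, 107 and 131 CPM in UIR (1.71, SE 0.28, adjusted p = 0.000751), with 109 CPM in the UUO library available. In frTEC the control libraries had 66.3, 127 and 111 CPM, the UIR libraries 307, 384 and 391 CPM and the UUO libraries 299, 476 and 348 CPM (1.90, SE 0.24, adjusted p = 2.80e-05 and 1.91, adjusted p = 2.70e-05). The injured libraries of both classes lay above all of their controls. In the frTEC pools, summed stromal markers were 4.65 to 44.2 CPM in control, 288 to 427 CPM in UIR and 384 to 542 CPM in UUO, and the estimated share of free RNA was 3.96% to 17.8%, 12% to 50% and 3.21% to 11.5%. The 50%, in UIR2, is the upper limit set for this estimate. Both calls also passed after subtraction of free RNA, and the part of the stromal markers was not tested. By cluster, *Nrp1* was 84.1 CPM in control, 361 CPM in UIR and 213 CPM in UUO in the *Fst* cluster, and 13.7, 323 and 283 CPM in the *Uncx* cluster, where the control value rests on 3 UMIs. The cluster led by *Wnt16* and *Tnc*, with 12 of the 101 cells in control, 199 of 842 in UIR and 111 of 353 in UUO, had 870 CPM in UIR and 887 CPM in UUO.

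PT had the smallest *Nrp1* difference of these classes in UIR, with 18.1, 22.3, 20.2, 15.4 and 30.7 CPM in control, 30.9, 33.3 and 29.5 CPM in UIR and 31.7, 64.6 and 91.9 CPM in UUO. The UIR difference was 0.57 (adjusted p = 0.132), and passed without AN2 (0.75, adjusted p = 0.00615). UUO differed by 1.5 (SE 0.32, adjusted p = 0.0106), a call lost without UUO1 (1.5, adjusted p = 0.0570) or UUO2 (1.11, adjusted p = 0.10). Free *Nrp1* RNA moved with the groups, at medians of 22.9, 71.4 and 167 CPM in empty droplets of control, UIR and UUO. Endothelial markers in the intercalated cell pools summed to 3.79 to 6.29, 14.6 to 21.3 and 16.1 to 23.5 CPM and stromal markers to 13.3 to 62.9, 54.2 to 95.4 and 33.4 to 44.1 CPM. Each of these tubular *Nrp1* calls against control also passed after subtraction of the empty-droplet profile.

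**Figure D4:**
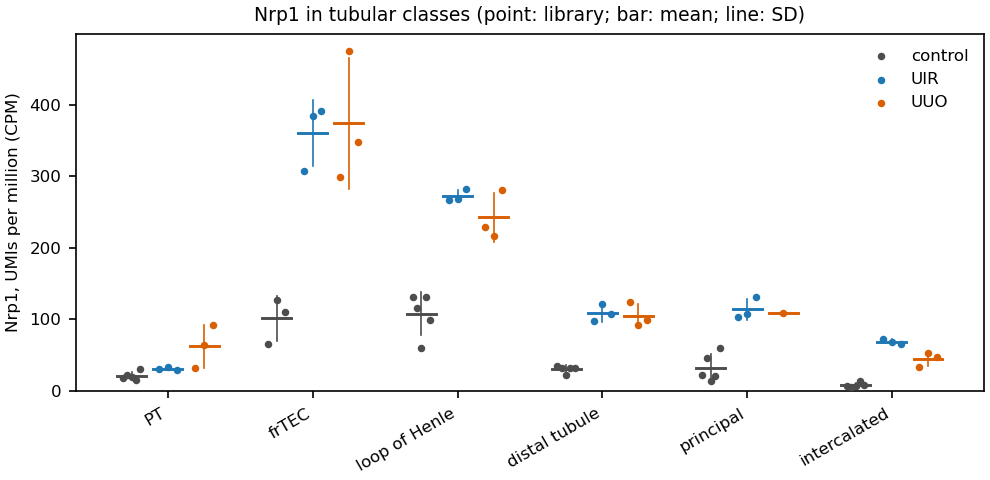
*Nrp1* level per library in 6 tubular classes. The y axes give CPM, points are libraries, bars are means and lines are SD; UIR and UUO points lie above every control point in the 5 classes other than PT, where the lowest UIR value (29.5 CPM) is below the highest control (30.7 CPM).

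Podocytes held *Nrp1* at 252, 198, 325, 228 and 256 CPM in control, 193, 301 and 302 CPM in UIR and 268, 296 and 408 CPM in UUO, with overlap (0.13, adjusted p = 0.926 and 0.36, adjusted p = 0.318). The podocyte change was smaller than that of the loop of Henle by -0.92 (SE 0.24, adjusted p = 0.00952) in UIR, a call lost without AN2 (-0.88, adjusted p = 0.0605), and by -0.56 (adjusted p = 0.142) in UUO.

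In PTC and arterial endothelium *Nrp1* moved in the opposite direction from the tubule. PTC had 2313, 1806, 2088, 2168 and 2189 CPM in control, 1077, 1207 and 1030 CPM in UIR and 665, 768 and 933 CPM in UUO, without overlap (-1.02, SE 0.15, adjusted p = 2.50e-05 and -1.54, SE 0.16, adjusted p = 1.60e-08). Arterial endothelium had 964, 882, 977, 921 and 674 CPM in control, 508, 573 and 564 CPM in UIR and 410, 498 and 473 CPM in UUO (-0.73, adjusted p = 0.00141 and -0.98, adjusted p = 1.00e-05). The arterial clusters differed in share, since the one led by *Calca* held 92 of the 201 cells in control, 34 of 310 in UIR and 4 of 277 in UUO and the one led by *Jam2* held 33, 143 and 180. *Nrp1* was 1047 CPM in control, 552 CPM in UIR and 448 CPM in UUO in the *Jam2* cluster, and 995 and 624 CPM in control and UIR in the *Calca* cluster. The cluster led by *Stmn2* ran otherwise, at 618, 740 and 631 CPM. The UUO call was lost at the finer clustering, where the difference was -0.39 (adjusted p = 0.117). GEC had 5835, 4502, 4761, 5048 and 4768 CPM in control, 4656, 4768 and 4656 CPM in UIR and 4460, 3964 and 4325 CPM in UUO, and did not pass (-0.12, adjusted p = 0.837 and -0.31, adjusted p = 0.165). All 3 UUO values lay below every control, and DESeq2's test called the UUO difference (-0.32, adjusted p = 0.00822).

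Stromal *Nrp1* fell. It was at 2096, 2069, 3476, 3354 and 1834 CPM in control, 1037, 582 and 626 CPM in UIR and 892, 963 and 1003 CPM in UUO (-1.70, SE 0.23, adjusted p = 1.70e-05 and -1.38, SE 0.22, adjusted p = 0.000101). The makeup of the class changed at the same time. Fibro 3, the pericyte-like cluster of the study, held 106 of 165 control cells, 56 of 810 UIR and 149 of 820 UUO cells, and Fibro 1 held 3, 276 and 346. Within Fibro 3, *Nrp1* was 3489 CPM in the 1 control pool, 3784 CPM in the 1 UIR pool and 3781, 3736 and 3668 CPM in UUO, whereas Fibro 1 had 460 to 625 CPM in UIR and 529 to 625 CPM in UUO.

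*Tek*, the angiopoietin receptor, fell in the GEC class as a whole after obstruction. GEC had 622, 434, 419, 526 and 569 CPM in control, 383, 422 and 360 CPM in UIR and 323, 320 and 328 CPM in UUO. The UUO libraries lay below all controls (-0.74, SE 0.14, adjusted p = 0.000206), and the UIR difference was -0.43 (adjusted p = 0.111). The UUO call was lost with pools of at least 50 cells (-0.51, adjusted p = 0.0722). Within the *Ehd3* cluster the level did not follow the class. It was 486 CPM in control, 475 CPM in UIR (-0.10, adjusted p = 0.945) and 681 CPM in UUO (88 UMIs in 25 cells), whereas the *Apln* cluster had 308 CPM in UIR and 270 CPM in UUO and the *Esm1* cluster 460 and 415 CPM. PTC had 735, 680, 469, 525 and 564 CPM in control, 483, 566 and 635 CPM in UIR and 612, 631 and 674 CPM in UUO, with overlap (-0.18, adjusted p = 0.770 and -0.04, adjusted p = 0.923).

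Stromal *Tek* was 54.9, 83.6, 46.5, 36.2 and 41.8 CPM in control, 12.6, 4.29 and 3.80 CPM in UIR and 9.97, 8.80 and 11.7 CPM in UUO (-2.96, SE 0.40, adjusted p = 1.5e-05 and -2.36, SE 0.37, adjusted p = 5.90e-05). As for *Nrp1*, Fibro 3 held it at 46.7 CPM in control, 64.2 CPM in UIR and 73.5, 40.3 and 70.8 CPM in UUO. *Tek* was also called higher in PT at a few CPM (2.15, adjusted p = 0.0351 and 3.93, adjusted p = 0.0193), beside the endothelial marker sums given for *Kdr*. The UIR call was lost without any of Ctrl, N1, AN1, AN2, library UIR or UIR1 (1.79 without the last, adjusted p = 0.281) and with the number in the title as a block, and the UUO call without library UUO (3.1, adjusted p = 0.247).

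*Angpt1*, the activating ligand of *Tek*, fell in most tubular classes tested in UUO. The distal tubule, its highest control class, had 36.9, 44.6, 30.3, 32.7 and 24.9 CPM in control, 36.1, 34.5 and 29.6 CPM in UIR and 10.5, 13.7 and 9.32 CPM in UUO. UIR overlapped control (-0.38, adjusted p = 0.0956; without AN2 -0.48, adjusted p = 0.0408), and UUO lay below both (-2.02, SE 0.21, adjusted p = 2.20e-09 against control and -1.64, SE 0.20, adjusted p = 3.60e-06 against UIR). By cluster, *Angpt1* was 58.9 CPM in control and 66.7 CPM in UIR in the *S100g* cluster, 9.90 and 18 CPM in the *Pvalb* cluster, and 11.3 CPM in UIR and 7.69 CPM in UUO in the *Spink12* cluster, against 51.8 and 31.6 CPM in the *Slc12a3* cluster. With a mitochondrial limit of 15%, both differences from control of *Angpt1* in this class changed sign (1.4, adjusted p = 0.0143 in UIR and 0.03, adjusted p = 0.974 in UUO).

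PT had 13, 15.6, 16.6, 12.7 and 11.9 CPM of *Angpt1* in control, 7.54, 6.08 and 5.80 CPM in UIR (-1.09, SE 0.18, adjusted p = 0.000169) and 0, 2.09 and 2.0 CPM in UUO. The UUO value rests on 2 UMIs, and the control level was 9.74 times higher (counting interval 2.69 to 80.6). In the loop of Henle, *Angpt1* was 5.27, 0, 5.21, 2.76 and 13.8 CPM in control, 0.511, 0.797 and 0.182 CPM in UIR and 0.185, 0.541 and 0 CPM in UUO (-3.76, adjusted p = 0.000667 and -4.43, adjusted p = 0.000415), with 1 control library at 0. Intercalated cells had 9.70, 12.1, 10.5, 13.3 and 7.89 CPM in control, 22.6, 22.3 and 20.8 CPM in UIR and 9.39, 9.32 and 4.03 CPM in UUO. All UIR values lay above control (0.74, adjusted p = 0.0578; 0.74, adjusted p = 0.0380 in the fit without UUO2), and UUO was lower than UIR by -1.58 (SE 0.25, adjusted p = 0.000277).

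Stromal *Angpt1* ran upward, from 6.86, 5.23, 5.81, 14.5 and 10.4 CPM in control to 17.5, 16.7 and 22.8 CPM in UIR and 14.9, 25.4 and 31.1 CPM in UUO. The differences were 1.28 (adjusted p = 0.0900) and 1.54 (SE 0.47, adjusted p = 0.0246), and the UUO call was lost without Ctrl (1.44, adjusted p = 0.0771), N1 (1.43, adjusted p = 0.0666), N2 (1.45, adjusted p = 0.0535), UUO1 (1.47, adjusted p = 0.0575) or UUO2 (1.28, adjusted p = 0.0829), and without the N libraries (1.31, adjusted p = 0.142). The clusters of stroma differed in level as well as in share. *Angpt1* was 18.3 to 24.2 CPM in UIR and 18.6 to 36.6 CPM in UUO in Fibro 1, whereas Fibro 3, with 106 of 165 control cells, held 1 UMI over the control pools and 0 in UIR and UUO. In whole endothelium *Angpt1* was lower in UUO (-1.36, adjusted p = 0.0388), a call lost without N1 (-1.07, adjusted p = 0.172), AN2 (-1.05, adjusted p = 0.176), UUO1 (-1.39, adjusted p = 0.0949) or UUO2 (-1.18, adjusted p = 0.136). It was also lost with the number in the title as a block (adjusted p = 0.0507), and in 10 of 25 alternatives in all. PT gave 65.0% of control *Angpt1* UMIs, whereas the distal tubule led in UIR with 31.6% and stroma in UUO with 36.2%.

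*Angpt2*, the ligand that can oppose *Angpt1*, had the largest fitted rise of the members tested in GEC, from at most 1 UMI in each control library. With so few control UMIs, the size of its differences from control is uncertain. GEC had 3.50, 3.22, 2.85, 4.35 and 0 CPM in control, 31.3, 65.1 and 51.9 CPM in UIR and 84.3, 212 and 216 CPM in UUO. No group overlapped another, with 3.91 (SE 0.83, adjusted p = 0.0220) in UIR, 5.73 (SE 0.64, adjusted p = 3.40e-05) in UUO and 1.82 (SE 0.35, adjusted p = 0.0160) for UUO against UIR. The UIR call was lost without any 1 control library or UIR2 (3.70 to 4.07, adjusted p = 0.0594 to 0.0903) and with doublets kept (2.05, adjusted p = 0.262), and that of UUO against UIR without Ctrl (1.82, adjusted p = 0.0522), library UIR (1.48, adjusted p = 0.0738) or UIR2 (1.88, adjusted p = 0.0594). In all, 10 of 25 alternatives lost the UIR call (adjusted p up to 0.399) and 7 of 25 that of UUO against UIR (up to 0.139). The UUO call against control held in all 25. By cluster, *Angpt2* was 3.22 CPM in control, 9.33 CPM in UIR and 38.7 CPM in UUO in the *Ehd3* cluster, and 75.5 CPM in UIR and 218 CPM in UUO in the *Apln* cluster.

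In PTC, *Angpt2* was 9.64, 0, 42.6, 26.6 and 22.9 CPM in control, 0, 4.19 and 7.80 CPM in UIR and 0, 5.05 and 5.64 CPM in UUO, too few to be tested alone. Whole endothelium had 9.59, 5.70, 7.09, 12 and 11.7 CPM in control, 21.6, 37.8 and 28.7 CPM in UIR and 70.9, 135 and 123 CPM in UUO (1.60, adjusted p = 0.0115 and 3.46, adjusted p = 1.5e-07). The 3 groups did not overlap. The UIR call was lost without the N libraries (1.37, adjusted p = 0.131) or the AN libraries (1.87, adjusted p = 0.0595).

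*Angpt2* fell in the class named frTEC and in stroma as a whole, the 2 classes outside vessels in which it was tested against control. In frTEC the control libraries had 511, 502 and 553 CPM, the UIR libraries 25.0, 9.26 and 22.5 CPM and the UUO libraries 12.2, 5.34 and 1.90 CPM (-4.79, SE 0.43, adjusted p = 0.000212 and -6.31, SE 0.51, adjusted p = 0.00010). The classes of injured and control frTECs came mostly from different clusters, but the level also differed within those that held control cells. *Angpt2* was 766 CPM in control, 67.6 CPM in UIR and 28.9 CPM in UUO in 1 of them, and 516, 59.4 and 15.3 CPM in another. Stroma had 106, 157, 192, 210 and 120 CPM in control, 53.3, 34.8 and 53.7 CPM in UIR and 54.4, 67.8 and 59.8 CPM in UUO (-1.62, adjusted p = 1.60e-05 and -1.30, adjusted p = 0.000102), whereas Fibro 3, whose share of the stroma was smaller after injury, held 193 CPM in control, 197 CPM in UIR and 135, 184 and 151 CPM in UUO. In Fibro 1, UUO (36.0, 39.3 and 33.9 CPM) exceeded UIR (10.8, 10.4 and 15.5 CPM) by 1.54 (SE 0.27, adjusted p = 0.00133).

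The injury effects were then compared between GEC and PTC in 1 model, with the library as a block. Of the 5 members that passed the count filter in each bed alone, which *Angpt2* did not, 1 differed in UIR (2.81% of all genes were called) and 4 in UUO (6.38%). The GEC change exceeded the PTC change for *Nrp1* by 0.88 (SE 0.11, adjusted p = 1.10e-09) in UIR and 1.23 (SE 0.11, adjusted p = 2.10e-15) in UUO. In UUO it was also higher for *Flt4*, by 1.24 (SE 0.29, adjusted p = 0.00131), and *Kdr*, by 1.14 (SE 0.27, adjusted p = 0.0356), and lower for *Tek*, by -0.71 (SE 0.16, adjusted p = 0.000685).

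The *Kdr* call between the beds was lost without any 1 control library, UIR1 or UUO1 (1.09 to 1.20, adjusted p = 0.0524 to 0.116). In UIR the difference between beds was 0.85 for *Kdr* (adjusted p = 0.153), 0.75 for *Flt4* (adjusted p = 0.153) and -0.27 for *Tek* (adjusted p = 0.525). *Flt1* differed by 0.06 (adjusted p = 0.898) in UIR and 0.08 (adjusted p = 0.823) in UUO.

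**Figure D5:**
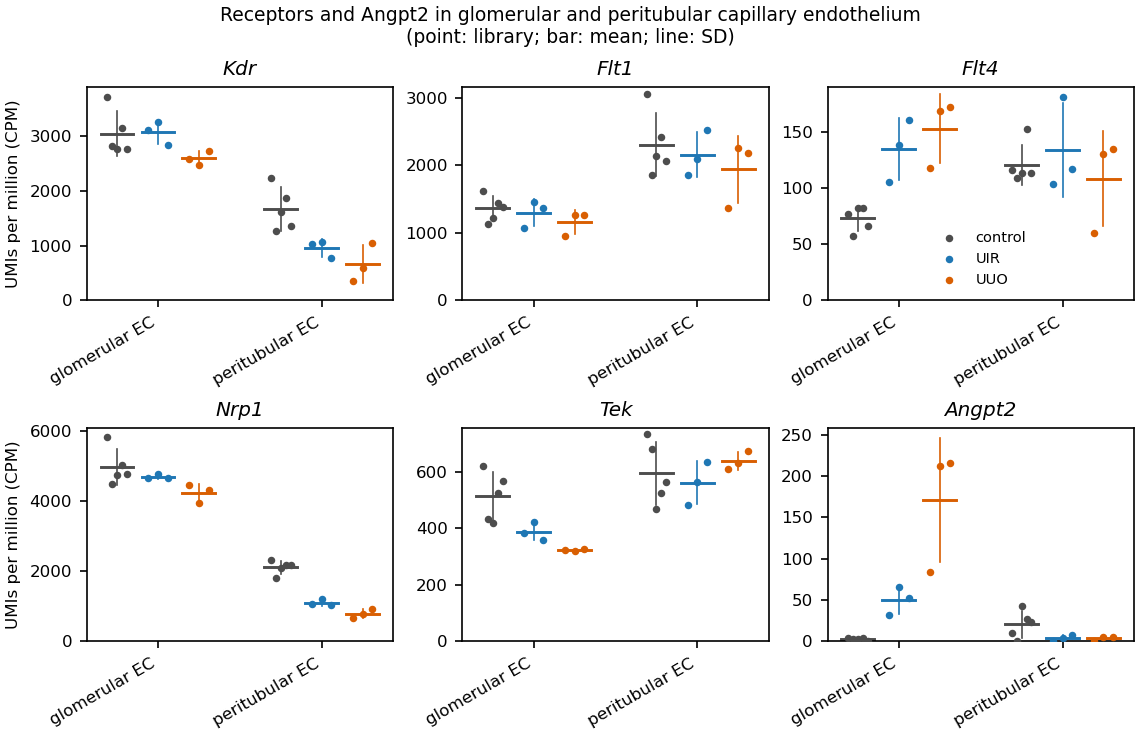
Level of 5 receptors and *Angpt2* per library in GEC and PTC. The y axes give CPM, points are libraries, bars are means and lines are SD; *Nrp1* of UIR and UUO lies below every control in PTC (1806 CPM or more), and *Angpt2* reaches 216 CPM in GEC of UUO.

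Genes that act downstream of these receptors also moved in GEC. Of 14 tested endothelial targets and effectors, 4 were higher and 2 lower in UIR (2.77% of all genes were called in GEC) and 4 were higher and 3 lower in UUO (10.3%). *Esm1*, a secreted proteoglycan of tip cells, had a mean of 38.0 ± 23.7 CPM in control, 712 ± 85.3 CPM in UIR and 1489 ± 170 CPM in UUO (4.17, adjusted p = 7.80e-12 and 5.19, adjusted p = 6.90e-15). Its UIR call also held in the *Ehd3* cluster (4.11, adjusted p = 9.50e-05), unlike those of *Klf4* and *Rcan1* given next. *Apln*, the ligand of the apelin receptor, had 1 UMI in control, 159 ± 37.2 CPM in UIR and 516 ± 209 CPM in UUO, and *Dll4*, a Notch ligand, was higher in UUO (113 ± 19.6 against 302 ± 58.9 CPM, 1.32, adjusted p = 1.00e-07). *Klf4*, a flow-responsive factor, fell from 428 ± 70.0 CPM to 205 ± 33.7 and 129 ± 36.6 CPM (-1.08, adjusted p = 6.10e-05 and -1.80, adjusted p = 4.40e-10), and in the *Ehd3* cluster its UIR difference was -0.54 (adjusted p = 0.154). *Rcan1*, an inhibitor of calcineurin, was 52.1 ± 9.29 CPM in control and 26.6 ± 2.82 CPM in UIR (-0.95, adjusted p = 0.0439), and differed by -1.02 (adjusted p = 0.261) in that cluster. The members and these genes were left out of the genes used for clustering, but *Apln* and *Esm1* are leading genes of the GEC clusters named above.

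In PTC, 1 of 12 targets was higher and 2 were lower in each model (2.72% and 7.87% of all genes were called). *Esm1* fell from 1591 ± 574 CPM to 433 ± 95.4 CPM in UIR (-1.96, adjusted p = 0.0183) and 338 ± 147 CPM in UUO (-2.34, adjusted p = 0.00408). *Aplnr*, the apelin receptor, rose from 78.6 ± 47.0 CPM to 287 ± 49.2 and 238 ± 100 CPM (1.91, adjusted p = 0.00108 and 1.64, adjusted p = 0.00303).

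Other ligands, receptors and regulators of the families were counted from a list of 16. In the distal tubule 3 of 8 tested rose and 3 fell in UIR (37.4% of all genes were called) and 4 rose and 3 fell in UUO (48.7%). In the loop of Henle 2 of 5 rose and 1 fell in UIR (32.4%) and 3 rose and 1 fell in UUO (37.2%), and in PT 3 and 5 of 10 rose (12.1% and 8.81%), beside the endothelial marker sums given for *Kdr*. *Vegfb* fell in the distal tubule from 126 ± 21.0 CPM to 72.5 ± 14.7 and 69.4 ± 6.33 CPM (-1.16, adjusted p = 1.00e-07 and -1.31, adjusted p = 7.20e-09), where *Figf*, which encodes VEGF-D, fell from 27.9 ± 5.24 CPM to 7.54 ± 1.74 and 3.72 ± 2.46 CPM (-2.19, adjusted p = 1.4e-07 and -3.31, adjusted p = 4.00e-10). *Sema3c*, a class 3 semaphorin that binds neuropilins, rose there from 2.04 ± 1.25 CPM to 105 ± 49.2 and 200 ± 36.5 CPM (5.22, adjusted p = 1.5e-06 and 6.08, adjusted p = 9.90e-08). In the loop of Henle *Sema3c* was 34.0 ± 17.4 CPM in control and 400 ± 53.4 and 428 ± 37.1 CPM after injury, but differed by 0.42 (adjusted p = 0.864) in the cluster with most control cells, where *Vegfb* differed by 0.01 (adjusted p = 0.991). The *Nrp2* co-receptor rose in GEC from 75.4 ± 14.8 CPM to 139 ± 4.84 and 176 ± 26.7 CPM (0.81, adjusted p = 0.00748 and 1.12, adjusted p = 9.40e-06), but differed by 0.11 (adjusted p = 0.967) in the *Ehd3* cluster in UIR.

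HIF target genes were read because *Vegfa* is one, and in each tubular class with a call more of them fell than rose. By edgeR, 0 of 8 passed in podocytes (2 in UIR and 1 in UUO at an unadjusted p under 0.05) and 0 of 13 in PT (0 and 2), and DESeq2 called 0 in each. In the loop of Henle 2 of 11 rose and 3 fell in UIR (32.4% of all genes were called) and 2 rose and 4 fell in UUO (37.2%). In frTEC 1 of 11 rose and 3 fell in UIR (12.9%) and 1 rose and 4 fell in UUO (14.1%), and in principal cells 3 of 11 fell in UIR (7.95%). In the distal tubule 5 of 11 fell in UIR, near the share of all genes called there (37.4%), and 7 fell and 1 rose in UUO (48.7%). In intercalated cells 4 and 5 of 11 fell (22.2% and 28.7%). These shares count calls in either direction, and the clusters of these classes differed in share between groups (above). In the loop of Henle cluster with most control cells, 4 targets had a UIR fit, and none was called (adjusted p = 0.333 to 0.995). They were *Slc2a1* (0.07), *Higd1a* (0.01), *Bnip3* (-0.22) and *Ndrg1* (0.69). *Adm*, which encodes adrenomedullin, went from 46.8 ± 12.7 CPM to 13.8 ± 2.03 and 7.53 ± 0.972 CPM in intercalated cells (-2.08, adjusted p = 1.20e-08 and -2.96, adjusted p = 3.00e-10). *Ndrg1*, a hypoxia and stress gene, ran against this in frTEC, with 95.4 ± 56.6 CPM in control and 534 ± 115 and 569 ± 151 CPM after injury (2.56, adjusted p = 0.000444 and 2.61, adjusted p = 0.000334). In stroma *Epas1*, which encodes HIF-2α, fell from 987 ± 122 CPM to 315 ± 71.5 and 336 ± 31.6 CPM (-1.58 and -1.52, adjusted p = 2.10e-06 in both). Within Fibro 3, whose share of the stroma fell as given for *Nrp1*, it was 899 CPM in the control pool, 1169 CPM in the UIR pool and 1187, 1218 and 1275 CPM in UUO, whereas Fibro 1 had 133 to 204 CPM in UIR and 106 to 153 CPM in UUO.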

How the data were processed

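Single-cell suspensions made with cold-active protease were loaded on the 10x Chromium 3′ platform. For all 11 libraries the authors deposited UMI counts of all genes and barcodes, neither normalized nor corrected for free RNA or doublets, with empty droplets kept. Per the labels, counting used Cell Ranger 3.1.0 and build mm10.

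A barcode was taken as a cell above 0.1 of the 99th percentile among the 3000 largest. Smaller ones with 500 UMIs or more that differed from the empty-droplet profile (ranks 45000 to 90000) were added at a false discovery rate of 0.01. The limits were 30% mitochondrial UMIs, 5% hemoglobin UMIs and a minimum of 200 genes, and 7.5% predicted doublets were removed. Cells were clustered (Leiden, resolution 1) on 2000 variable genes without the members, the pathway genes and the naming markers. Clusters were named from marker lists, and the naming rule was revised after the marker tables had been seen. Distal and connecting tubule were merged, and no lymphatic or urothelial class could be named.

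UMIs were summed per library and class (at least 20 cells) and compared by the quasi-likelihood test of edgeR (filterByExpr, TMM, 3 groups in 1 model). Differences between classes had the library as a block and are given for members that passed the filter in each class alone. Levels are CPM of these sums. Counting intervals are exact at 95% and cover counting error only. The members and gene lists were chosen with earlier results of these data known. All 10 members are named. Of the other lists, up to 5 called genes per class and contrast with at least 20 CPM qualified, and a part of these is printed.

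In simulated data, the endothelial test of UIR recovered 88 of 92 genes at an absolute log2 fold change of 2 and 21 of 108 at 1 (11015 genes), that of podocytes in UIR 85 of 105 at 2 and 25 of 95 at 1, and that of podocytes in UUO 79 of 105 and 11 of 95 (6109 genes). The test of the difference between GEC and PTC recovered 75 of 200 in UIR and 77 of 200 in UUO at 2 (7032 genes). The alternatives were DESeq2's size factors and test, no filter on low counts, leaving out each library, the number in the title as a block, controls without the N or the AN libraries, mitochondrial limits of 15% and 50%, doublets kept, free RNA subtracted, pools of 10 and 50 cells and resolution 2. Cells of at least 1000 UMIs, and the cluster with most control cells alone, were added after seeing the data. The tools were R 4.3.3, edgeR 4.0.16, limma 3.58.1, DESeq2 1.42.0, Python 3.11.15, numpy 2.4.6, scipy 1.17.1, pandas 2.3.3, scanpy 1.11.5, leidenalg 0.10.2, scikit-learn 1.9.0 and matplotlib 3.10.9.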

Additional observations from a re-analysis of the deposited data

Results flagged for a closer look

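Among 60 groups of 5 control libraries, 9 had a library far from the others (15%, where chance gives about 1 in 20). For the ligands, *Vegfc* in stroma was highest in AN2 at 26.1 CPM (5 UMIs; the others had 0 to 7.24 CPM), *Pgf* in stroma was highest in N1 at 99.3 CPM (others 29.0 to 47.0 CPM), and *Pgf* in endothelium was found in N2 alone, at 1.77 CPM from 1 UMI. For the receptors, *Kdr* in PT was highest in AN1 at 1.34 CPM (others 0.390 to 0.598 CPM), *Flt1* in the loop of Henle was found in N2 alone at 2.61 CPM from 1 UMI, and *Flt4* in PTC was highest in AN1 at 153 CPM (others 109 to 116 CPM). *Nrp1* in the distal tubule was lowest in N2 at 22.5 CPM (others 32.4 to 34.8 CPM), and in intercalated cells highest in AN1 at 13.3 CPM (others 6.03 to 7.89 CPM). *Tek* in whole endothelium was highest in Ctrl at 604 CPM (others 388 to 429 CPM).

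Of 14 tests of whether the injury effect differed between 2 classes, 8 were called. Between GEC and PTC, the difference was 0.88 for *Nrp1* in UIR. In UUO it was 1.23 for *Nrp1*, 1.24 for *Flt4*, 1.14 for *Kdr* and -0.71 for *Tek*. Between podocytes and the loop of Henle it was 2.20 in UIR and 3.12 in UUO for *Vegfa*, and -0.92 in UIR for *Nrp1*.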

How the results depend on the processing

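Of 83 called differences, 51 passed under every alternative that tested them and 32 were lost under at least 1. The count of called pairs of a member and a class fell from 29 to 16 in UIR and from 35 to 19 in UUO at a mitochondrial limit of 15%, and to 17 and 23 with pools of at least 50 cells, where fewer pools were tested. Leaving out 1 library gave 23 to 32, 29 to 35 and, for UUO against UIR, 7 to 12 calls. Of the called differences of members, 12 were lost with doublets kept, 12 without the N and 11 without the AN libraries and 11 lost or reversed at the 15% limit, against 6 at the finer clustering, 4 after subtraction of free RNA, 4 with pools of at least 50 cells and 1 by DESeq2's test. The difference between GEC and PTC in UUO ran from 0.85 to 1.58 for *Kdr* without 1 library, and at the 15% limit was 1.16 (adjusted p = 0.164) for *Kdr* and 0.99 (adjusted p = 0.0917) for *Flt4*. That between podocytes and the loop of Henle for *Nrp1* in UIR ran from -1.09 to -0.74 without 1 library.

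Signs changed at the 15% limit for *Angpt1* (1.4 in UIR and 0.03 in UUO), *Adm* (0.37 in UIR) and *Hif1a* (0.15 in UIR and 0.03 in UUO) in the distal tubule and for *Ddit4* (-0.04 and -0.03) in the loop of Henle. They also changed for *Slc2a1* (0.07), *Higd1a* (0.01) and *Vegfb* (0.01) of UIR in the loop of Henle cluster with most control cells, and for *Ndrg1* (0.08) in stroma of UUO after subtraction of free RNA. The cause was not tested. The *Vegfa* fall in the loop of Henle was lost in that cluster alone (-0.21, adjusted p = 0.867).

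The numbers in the titles were taken not to pair the libraries, as judged from deviations of log levels from the mean of each group. In these, UIR and UUO libraries of the same number, or both without one, correlated at 0.02 to 0.34 in stroma and 0.05 to 0.33 in PT. In endothelium, however, r ran from 0.18 to 0.65 and in the loop of Henle from 0.27 to 0.75. The highest r of each class was that of libraries UIR and UUO, the pair without a number. In each class both correlated negatively with the numbered libraries of the other model (-0.59 to -0.08). Deviations cancel within a group, so that these negative values are no separate result. What sets the libraries without a number apart was not tested. In the block they form a level of their own, together with Ctrl. With the number as a replicate block, 27, 34 and 13 pairs were called, of which 27, 33 and 11 are shared with the fit without it. The block ended the calls of *Kdr* in PTC (-1.43, adjusted p = 0.0598) and *Angpt1* in endothelium (-1.37, adjusted p = 0.0507) in UUO and of *Kdr* (2.43, adjusted p = 0.0901) and *Tek* (2.13, adjusted p = 0.0528) in PT in UIR. With it, *Vegfa* passed in podocytes against control (0.38, adjusted p = 0.00793) and, between UUO and UIR, in podocytes (0.48, adjusted p = 0.0288) and the loop of Henle (-0.49, adjusted p = 0.0259). The counts limit what can be seen of *Pgf*, *Vegfc* and *Angpt1* outside the classes where they are highest.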

Other observations

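Macrophages, which also carry neuropilin 1, had *Nrp1* at 178, 132, 57.5, 132 and 79.9 CPM in control, 230, 255 and 256 CPM in UIR and 258, 247 and 286 CPM in UUO. All injured libraries lay above all controls, and the differences were 1.07 (adjusted p = 0.000261) and 1.09 (adjusted p = 0.000115) by edgeR. The makeup of the class differed. The cluster led by *C1qa* held 266 of the 356 cells in control, 1286 of 3642 in UIR and 1444 of 4434 in UUO, and within it *Nrp1* was 117, 288 and 297 CPM. A cluster of low UMI counts led by *Ccl8* and *Pf4* held 88, 2306 and 2802 cells, and there *Nrp1* was 166 CPM in control (18 UMIs), 148 CPM in UIR and 173 CPM in UUO.

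Venous endothelium held 10 control, 178 UIR and 281 UUO cells, so that only the injured groups have values. *Kdr* was 853, 625 and 657 CPM in UIR and 559, 699 and 793 CPM in UUO, *Flt1* 1844, 2107 and 2482 CPM and 1613, 2006 and 2226 CPM, and *Tek* 688, 710 and 708 CPM and 704, 694 and 786 CPM. These overlapped between UIR and UUO. *Angpt2* was 46.1, 151 and 66.4 CPM in UIR and 130, 157 and 94.2 CPM in UUO (0.59, adjusted p = 0.719).

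Across 13 classes of control kidneys, the gene most like *Vegfa* in its mean log level was *Ufm1* (Pearson's r = 0.93), that most like *Flt1* was *Tie1* (0.99), the orphan partner of *Tek*, and those most like *Kdr* were *Fam167b* and *Lrrc3b* (1.0 each). For *Pgf* it was *Gm9780* (0.99), for *Nrp1* *Gle1* (0.96), for *Tek* *Meox1* (1.0), for *Angpt1* *Cyb5b* (0.83) and for *Angpt2* *Cxcl1* (0.91). These r describe 13 means from the same libraries and are not tests.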
